A study of Mus musculus with 2 samples.

Results

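Genes of axons, of the neuronal cytoskeleton and of sensory, motor and autonomic neurons were followed in RNA of the mouse limb, together with the growth factors and receptors on which limb nerves depend. They were 37 genes chosen by symbol, all 37 of which were found among the 43346 Ensembl genes of the deposited gene tables. The choice was made with earlier results of the same libraries known, including that neuron genes were low and higher in replicate 2. Levels and differences between the libraries are therefore given as descriptions, without a test. Total RNA came from limbs of healthy B6NCrl mouse embryos at 12.5 days, with male and female embryos pooled and with no treatment or second genotype. The labels give 1 group of 2 biological replicates, a pool of 88 embryos (replicate 1) and a pool of 68 embryos (replicate 2). Each library started from 10 ng of RNA longer than 200 nt. Forelimbs and hindlimbs were not separated in the labels.

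Nerves that grow into the limb bud are bundles of axons whose cell bodies lie outside the limb, the motor neurons in the spinal cord and the sensory neurons in the dorsal root ganglia. Most messenger RNA of a neuron stays in its cell body, and a smaller part is carried into the axon, so a dissected limb holds axons and their Schwann cell precursors but, when cut cleanly, no neuronal nuclei. The limb itself makes neurotrophins, secreted factors that keep arriving sensory and motor neurons alive. In bulk tissue, fewer cells or axons of a type and less RNA per cell cannot be told apart.

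Expected counts over Ensembl genes summed to 28832252 in replicate 1 and 29249348 in replicate 2, so 1 count was worth 0.0347 CPM (counts scaled to the library total) in replicate 1. Markers of limb mesenchyme, the loose tissue that fills the bud, were present in both libraries, with 9 of 9 detected and summed levels of 1052 and 1126 TPM (a level scaled by gene length and library size). Counts below are rounded expected counts per gene, intervals are exact 95% intervals, which leave out any error other than that of counting, as the files hold no molecular identifiers. A fold is replicate 2 over replicate 1 in CPM. It was read as at least 2-fold only where the gene had at least 10 counts in both libraries together, and a library at 0 counts was set to 3 counts, a fixed floor that lies below the upper end of the exact interval of a count of 0 (3.69 counts).

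Most of these genes were low. A level of at least 1 TPM in both libraries was reached by 14 of 37, and the median over the 37 genes was 0.910 TPM. Summed over the 37 genes the level was 152.7 TPM in replicate 1 and 184.3 TPM in replicate 2. Of the 37 genes, 33 had at least 10 counts in the libraries together, while Pou4f2, Tlx3, Chat and Slc18a3 did not. By mean level the order ran from Uchl1 (49.8 ± 6.25 TPM, SD, n = 2) to Gap43 (23.5 ± 1.27), Ntf3 (22.3 ± 1.10), Tac1 (11.0 ± 0.700), Nefm (10.1 ± 1.13), Dcx (7.96 ± 0.750), Stmn2 (7.63 ± 2.35), Nefl (7.36 ± 4.48), Bdnf (4.04 ± 0.354) and Elavl2 (3.51 ± 0.580). Neighbours in this order were apart in both libraries for Uchl1 and Gap43, for Ntf3 and Tac1, and for Nefm and Dcx. The ranges of all other neighbours overlapped, down to Slc18a3 at 0.

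**Figure D1:**
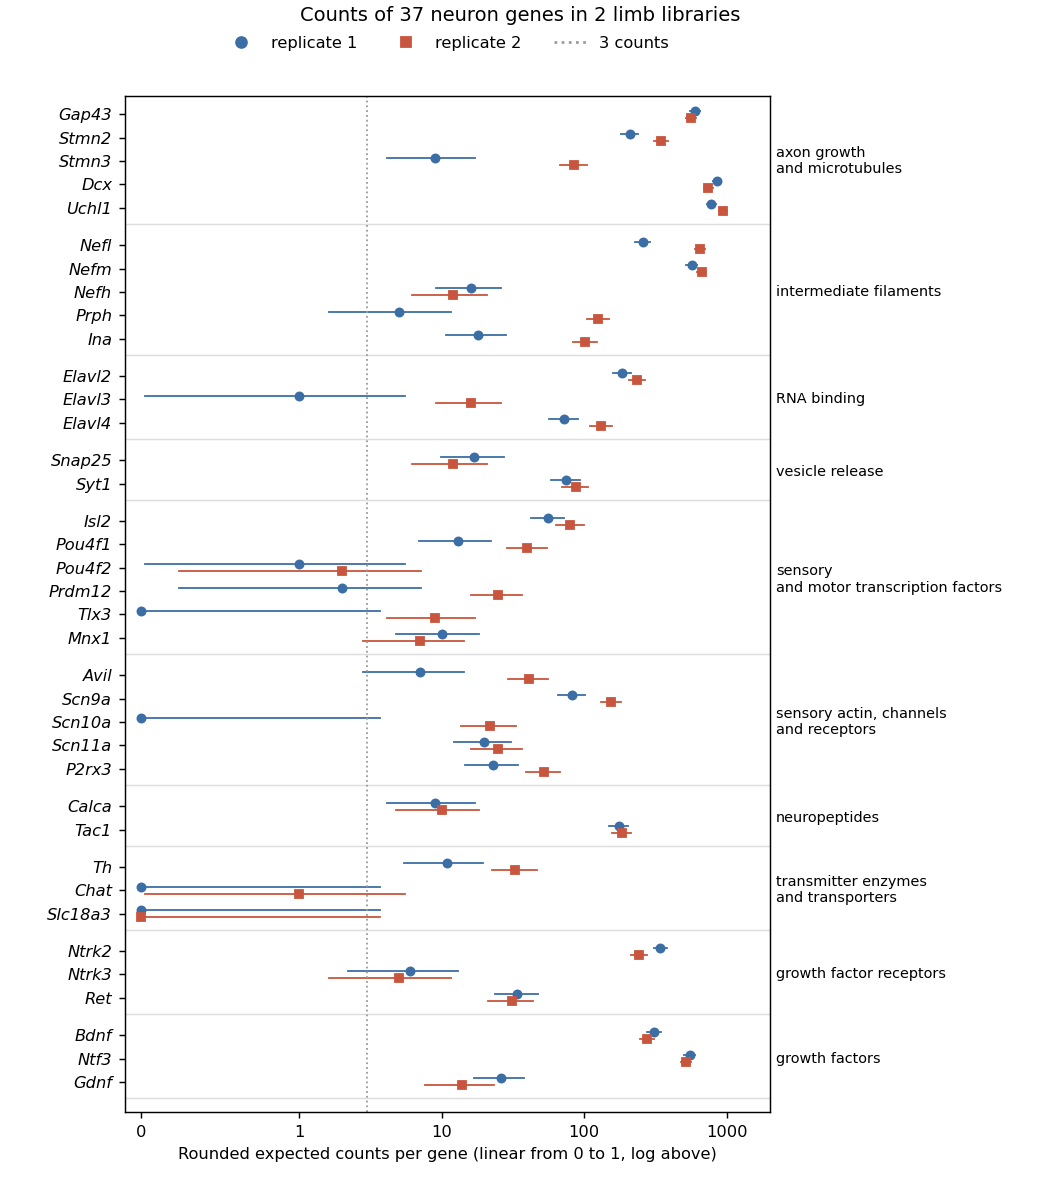
Rounded expected counts of the 37 genes in replicate 1 (circles) and replicate 2 (squares), grouped by role, with exact 95% counting intervals as bars; the axis is linear from 0 to 1 and logarithmic above, and the dotted line marks 3 counts. Prph had 5 and 126 counts and Stmn3 9 and 85, while Gap43, with 600 and 564, was nearly level.

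Among the 33 genes with enough counts, 11 were at least 2-fold higher in replicate 2, none (0) was at least 2-fold higher in replicate 1, and the other 22 lay within 2-fold. The 11 were Nefl, Prph, Ina, Stmn3, Elavl3, Pou4f1, Prdm12, Avil, Scn10a, P2rx3 and Th. Of all 18580 genes with at least 10 counts, 3.03% were at least 2-fold higher in replicate 2 and 2.78% at least 2-fold higher in replicate 1. The direction had helped to choose the genes, so nothing is read from that contrast. With levels from TPM in place of counts, Pou4f1 and P2rx3 left the 11, Scn9a joined them, and Ntrk3 (0.17 and 0.08 TPM) was at least 2-fold higher in replicate 1.

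Genes of axon growth and of microtubules made up more than any other role in summed level, with 84.7 TPM in replicate 1 and 97.9 TPM in replicate 2. Of 5 genes, 1 was at least 2-fold higher in replicate 2. Gap43, a growth cone protein that marks extending axons, had 600 and 564 counts in replicates 1 and 2, a ratio of 0.927 (0.825 to 1.04). Dcx, a microtubule-binding protein of migrating and extending young neurons, had 852 and 741 counts and was slightly lower in replicate 2 (0.857-fold, 0.776 to 0.947). Stmn2, a tubulin-binding protein of growth cones, had 209 and 347 counts and was higher in replicate 2 (1.64-fold, 1.38 to 1.95). Its relative Stmn3 had 9 and 85 counts (9.31-fold, 4.68 to 21.1), so relatives in this family differed in how far apart the libraries were.

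Uchl1, a deubiquitinating enzyme abundant in neurons, had the highest level of the 37 genes, with 779 and 942 counts and 45.3 and 54.2 TPM (1.19-fold, 1.08 to 1.31). Most of this level was assigned to Uchl1-202, a transcript annotated as a retained intron, which held 71.4% of the gene in replicate 1 and 58.8% in replicate 2. The coding transcript Uchl1-201 was at 11.9 and 19.5 TPM, from 237 and 393 expected counts, against 534 and 528 for Uchl1-202. The antisense gene Uchl1os overlaps 295 nt of Uchl1 exons. The sources used here do not give the strand setting of the counting, so antisense reads and retained-intron reads cannot be told apart from those of the coding gene by these tables.

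Intermediate filament genes summed to 14.2 TPM in replicate 1 and 27.3 TPM in replicate 2, and 3 of 5 genes were at least 2-fold higher in replicate 2. Neurofilaments are rope-like polymers that set the calibre of axons, built from a light (Nefl), a medium (Nefm) and a heavy (Nefh) subunit. Nefl had 257 and 652 counts in replicates 1 and 2, and 4.19 and 10.5 TPM (2.50-fold, 2.16 to 2.90). Nefm had 567 and 669 counts, and 9.34 and 10.9 TPM (1.16-fold, 1.04 to 1.30). Nefm was thus above Nefl per length in replicate 1, while in replicate 2 the levels were nearly the same. Nefh, which accumulates as axons mature, had 16 and 12 counts and was at 0.22 and 0.16 TPM.

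Nefl lies on chromosome 14 from 68083863 to 68089095 on the plus strand (mm10), and an annotated Nefm transcript reaches over it from the minus strand, so 1108 nt of their exons overlap. The expected counts of Nefl and Nefm summed to whole numbers, 824 in replicate 1 and 1321 in replicate 2, although neither gene's own expected count was whole. The transcript of Nefm that reaches Nefl, Nefm-202, was given 5.27 and 15.7 expected counts, and Nefm-201, which ends before it, 561 and 654. The split between the genes is uncertain by the reads that fall in the overlap.

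Prph encodes peripherin, the intermediate filament of neurons with axons in the periphery, and had 5 counts in replicate 1 and 126 in replicate 2 (24.8-fold, 10.4 to 77.8). Ina, the alpha-internexin of young neurons, had 18 and 102 counts (5.59-fold, 3.36 to 9.80), and 456 nt of its exons overlap Nt5c2 on the other strand. Stmn3, Prph and Ina had the largest ratios between the libraries of the genes with at least 50 counts. The 250 bases before their RefSeq start sites are shown because these genes were low together in replicate 1 and higher together in replicate 2. They were read from RefSeq on GRCm38.p6, 5′ to 3′, at chr15:99054924-99055173 (plus strand) for Prph, chr2:181314501-181314750 (minus strand) for Stmn3 and chr19:47014431-47014680 (plus strand) for Ina. Capitals mark the letters of the motifs searched.
Prph: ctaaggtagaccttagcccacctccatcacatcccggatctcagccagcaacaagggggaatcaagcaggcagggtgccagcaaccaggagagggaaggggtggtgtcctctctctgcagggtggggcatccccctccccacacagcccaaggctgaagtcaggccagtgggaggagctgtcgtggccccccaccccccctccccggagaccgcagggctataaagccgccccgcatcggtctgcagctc
Stmn3: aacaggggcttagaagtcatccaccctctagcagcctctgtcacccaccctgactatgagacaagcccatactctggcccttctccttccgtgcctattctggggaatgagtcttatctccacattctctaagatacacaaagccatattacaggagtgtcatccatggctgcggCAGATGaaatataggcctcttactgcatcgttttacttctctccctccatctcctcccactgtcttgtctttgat
Ina: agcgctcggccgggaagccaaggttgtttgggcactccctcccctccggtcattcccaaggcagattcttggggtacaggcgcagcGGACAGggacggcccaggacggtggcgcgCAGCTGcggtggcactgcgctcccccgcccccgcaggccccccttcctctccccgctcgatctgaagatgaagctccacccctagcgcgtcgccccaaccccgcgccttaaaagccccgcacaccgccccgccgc

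The letters searched, on both strands, were TTCAGCACC and GGACAG, both parts of the element bound by the neuron gene repressor REST, and CANNTG, the E-box bound by proneural factors. Matches of different motifs could overlap, and a window counted once however many matches it held. Windows of 300 bases, from 250 before to 50 after a start, were found for 28 of the 37 genes, 46 windows in all. TTCAGCACC was in 0 of the 46 and in 0.371% of all 32851 windows. GGACAG was in 5 of the 46 (10.9%), in those of Avil, Bdnf, Elavl2, Ina and Syt1, against 22.2% of all windows. CANNTG was in 34 of the 46 (73.9%) against 72.3% of all windows. In the windows shown, Prph had none of these letters, Stmn3 had 1 E-box and Ina had 1 E-box and GGACAG. The GC content of the 250 bases was 65.2% for Prph, 48.8% for Stmn3 and 70.8% for Ina.

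Neuronal RNA-binding proteins of the Elavl (Hu) family, which steady messenger RNAs in newborn neurons, were detected for 2 of 3 genes. Elavl2 had 185 and 234 counts in replicates 1 and 2 (1.25-fold, 1.02 to 1.52). Elavl4 had 72 and 132 counts (1.81-fold, 1.35 to 2.44). Elavl3 had 1 and 16 counts, and the ratio of 15.8 has an interval from 2.45 to 661. All 3 were higher in replicate 2. Elavl4 counts were assigned in part to short noncoding models: Elavl4-211, annotated as a processed transcript, held 46.8% and 29.5% of the level, but a mean of 16.6% of the expected counts.

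Genes of transmitter release were low. Syt1, the calcium sensor of synaptic vesicles, had 75 and 87 counts (0.93 and 1.17 TPM), with a ratio of 1.14 (0.830 to 1.58). Of its level, 72.0% in replicate 1 and 43.5% in replicate 2 went to the coding Syt1-201, and the remainder to Syt1-204, a retained-intron model. Snap25, a membrane fusion protein of nerve endings, had 17 and 12 counts. Neither gene was at least 2-fold apart between the libraries.

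Transcription factors act in the nucleus, and the nuclei of limb neurons lie outside the limb. These 6 genes summed to 2.77 TPM in replicate 1 and 4.89 TPM in replicate 2. Isl2, a LIM homeodomain factor of motor and sensory neurons, was the highest, with 56 and 80 counts and 1.90 and 3.03 TPM (1.41-fold, 0.988 to 2.02). In replicate 1, 56.4% of Isl2 was assigned to Isl2-202, annotated for nonsense-mediated decay, and in replicate 2, 62.2% to the coding Isl2-201. Pou4f1, the Brn3a factor of sensory neurons, had 13 and 40 counts (3.03-fold, 1.59 to 6.18). In TPM it was 0.52 and 0.77, a smaller gap, because its deposited length was 1437 nt in replicate 1 and 2846 nt in replicate 2. Prdm12, a regulator of pain-sensing neurons, had 2 and 25 counts (12.3-fold, 3.07 to 107). Tlx3, another factor of sensory and dorsal horn neurons, had 0 and 9 counts, under the minimum of 10. With replicate 1 set to 3 counts it was 2.96-fold higher in replicate 2 (counting interval from 1.95). Mnx1, which marks motor neurons, had 10 and 7 counts, and Pou4f2 had 1 and 2. The ratio of Mnx1 was 0.690 (0.223 to 2.01).

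Genes of sensory neuron excitability showed the same order of libraries. Avil, an actin-binding protein largely restricted to sensory and other peripheral neurons, had 7 and 41 counts (5.77-fold, 2.57 to 15.3). Sodium channel genes of pain-sensing neurons were Scn9a, Scn10a and Scn11a. Scn9a had 82 and 155 counts (1.86-fold, 1.42 to 2.47) and Scn11a 20 and 25 (1.23-fold, 0.657 to 2.34). Scn10a had 0 and 22 counts, which is 7.23-fold higher with replicate 1 set to 3 counts, and its counting interval starts at 5.40. P2rx3, an ATP-gated channel of the same neurons, had 23 and 52 counts (2.23-fold, 1.34 to 3.82). Replicate 2 was the higher library for each of the 5, and for 3 of them by at least 2-fold. Their summed level was 2.04 TPM in replicate 1 and 4.41 TPM in replicate 2.

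Of the neuropeptide genes, Tac1 was level between the libraries and Calca had too few counts to tell. Tac1, the precursor of substance P, had 175 and 183 counts and 10.5 and 11.5 TPM (1.03-fold, 0.833 to 1.28). Calca, the precursor of calcitonin gene-related peptide, had 9 and 10 counts (1.10-fold, 0.400 to 3.05). The level of Tac1 per length exceeded those of the channel genes P2rx3 and Scn9a (1.50 ± 0.523 and 0.910 ± 0.438 TPM).

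Tac1 is spliced into coding forms that keep or skip 2 short exons on chromosome 6, shown here because the shares of these forms differed between the libraries. The exons are given 5′ to 3′ on the plus strand from GENCODE M21 (mm10), in capitals throughout, since each is a whole exon. The exon of 45 nt (chr6:7557216-7557260) is absent from Tac1-203, and the exon of 54 nt (chr6:7559099-7559152) is absent from Tac1-201.
Exon absent from Tac1-203: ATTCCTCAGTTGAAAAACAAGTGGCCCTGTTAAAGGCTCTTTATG
Exon absent from Tac1-201: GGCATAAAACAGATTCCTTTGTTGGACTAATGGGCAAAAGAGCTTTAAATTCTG

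Tac1-205, which has both exons and 130 codons, held 50.9% of the gene's level in replicate 1 and 30.7% in replicate 2. Tac1-203 (115 codons) held 43.2% and 39.5%. Tac1-201 (112 codons) held 5.44% and 29.8%, from 9.44 and 57.0 expected counts. The form without the 45-nt exon was thus steady, while the balance of the other two differed between libraries. Transcript counts are estimates from shared reads, so these shares carry an error that the counting intervals do not cover.

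Of the 3 transmitter genes, Th was measurable and the cholinergic genes Chat and Slc18a3 were at or near 0. Th, the first enzyme of catecholamine synthesis in sympathetic and some sensory neurons, had 11 and 33 counts (2.96-fold, 1.46 to 6.49). Chat, the enzyme that makes acetylcholine in motor neurons, had 0 and 1 counts. Slc18a3, the vesicular acetylcholine transporter, had 0 counts in both libraries, where the floor of 3 counts is 0.104 CPM in replicate 1 and 0.103 CPM in replicate 2. Chat and Slc18a3 were thus not detectable at this depth beyond that 1 count.

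Of the 3 growth factors, Ntf3 and Bdnf were among the 10 highest of the 37 genes and Gdnf was low. Ntf3, the neurotrophin-3 that supports muscle sensory neurons, had 549 and 519 counts and 23.1 and 21.6 TPM (0.932-fold, 0.825 to 1.05). Bdnf, brain-derived neurotrophic factor, had 311 and 277 counts and 4.29 and 3.79 TPM (0.878-fold, 0.744 to 1.04). Gdnf, which supports motor neurons, had 26 and 14 counts (0.531-fold, 0.256 to 1.05). These 3 genes together were at 27.8 TPM in replicate 1 and 25.6 TPM in replicate 2, and each was lower in replicate 2 by less than 2-fold. Ntf3 was above Bdnf per length in both libraries.

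Bdnf has several promoters that put different first exons before the same coding sequence. Of 11 listed transcripts, Bdnf-205 held 96.8% of the level in replicate 1 and 88.2% in replicate 2. Bdnf-209, with the same 249 codons, held 3.18% and 11.8%. Ntf3 was divided nearly evenly between both of its transcripts, with Ntf3-202 at 46.7% and 54.0%.

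The receptors for these factors had a lower summed level, 3.05 TPM in replicate 1 and 2.15 TPM in replicate 2. Ntrk2, the receptor TrkB for Bdnf, had 343 and 242 counts and 2.62 and 1.84 TPM (0.696-fold, 0.588 to 0.822). Ret, the signalling receptor for Gdnf, had 34 and 31 counts. Ntrk3, the receptor TrkC for Ntf3, had 6 and 5 counts. Ntrk2 was thus higher in replicate 1, and 2 of the 33 genes, Ntrk2 and Dcx, had an interval wholly below 1.

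Ntrk2 is transcribed into a receptor with an intracellular kinase and a truncated receptor without it, and non-neuronal cells are known to make the truncated form. The point at which both coding sequences part is shown because it decides which form the reads report. Both are read 5′ to 3′ on the plus strand of chromosome 13 (mm10) from GENCODE M21, with 30 shared coding bases in lower case (chr13:58878233-58878262) and the bases of each form's own exon in capitals, chr13:58932023-58932057 for Ntrk2-202 and chr13:58985802-58985836 for Ntrk2-201.
Ntrk2-202: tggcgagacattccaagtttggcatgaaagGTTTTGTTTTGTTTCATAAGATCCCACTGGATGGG
Ntrk2-201: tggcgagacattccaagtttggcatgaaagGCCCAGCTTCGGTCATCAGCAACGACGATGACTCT

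After 1393 shared coding bases, Ntrk2-202 adds the 35 coding bases shown and ends at 476 codons, and Ntrk2-201 adds 1070 and reaches 821 codons. The truncated Ntrk2-202 held 93.7% of the level in replicate 1 and 95.2% in replicate 2, from 317 and 228 expected counts. The kinase form Ntrk2-201 held 6.33% and 4.82%, from 26.2 and 14.1 expected counts. Both libraries thus gave the same order of forms, also as a share of expected counts (mean 93.3% for Ntrk2-202). Ret-202 (1073 codons) held 70.5% of Ret in replicate 1 and 100% in replicate 2, and Ret-201 (1115 codons) had 8.71 and 0 expected counts.

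**Figure D2:**
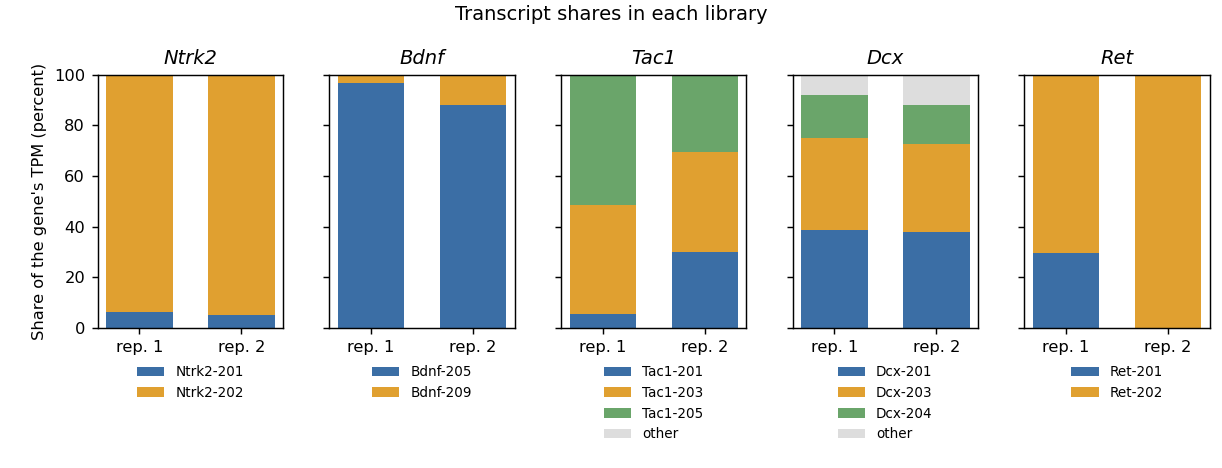
Share of each gene's TPM held by its transcripts (percent, stacked to 100) in replicate 1 and replicate 2, for 5 genes with at least 20 counts in each library. Ntrk2-202 held 93.7% and 95.2% of Ntrk2, while Tac1-201 went from 5.44% of Tac1 in replicate 1 to 29.8% in replicate 2.

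Transcript shares were read for the 18 genes with at least 20 counts in each library. Of these, 2 have 1 listed transcript. By share of TPM, the leading transcript of the other 16 was the same in both libraries for 12 and differed for 4 (Isl2, Ntf3, Syt1 and Tac1). By share of expected counts, Syt1-201 (77.9% and 51.4%) and Tac1-205 (64.7% and 41.1%) led in both libraries. Elavl2 differed by that measure, with Elavl2-208 leading in replicate 1 and Elavl2-204 in replicate 2. By mean share of TPM over the libraries, the leading transcript was noncoding for 2 genes, Uchl1 and Elavl4. Dcx was divided among Dcx-201 (38.7% and 37.7%), Dcx-203 (36.4% and 35.0%) and Dcx-204 (16.8% and 15.6%), which encode 366, 365 and 360 codons, with shares that hardly differed between libraries. Gap43-201 held 98.6% and 100%, Stmn2-201 91.8% and 99.6%, Nefm-201 99.2% and 97.9%, and Elavl2-204 30.7% and 56.5%. P2rx3-201 held 49.5% and 81.3% and Scn9a-202 49.2% and 45.3%.

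**Figure D3:**
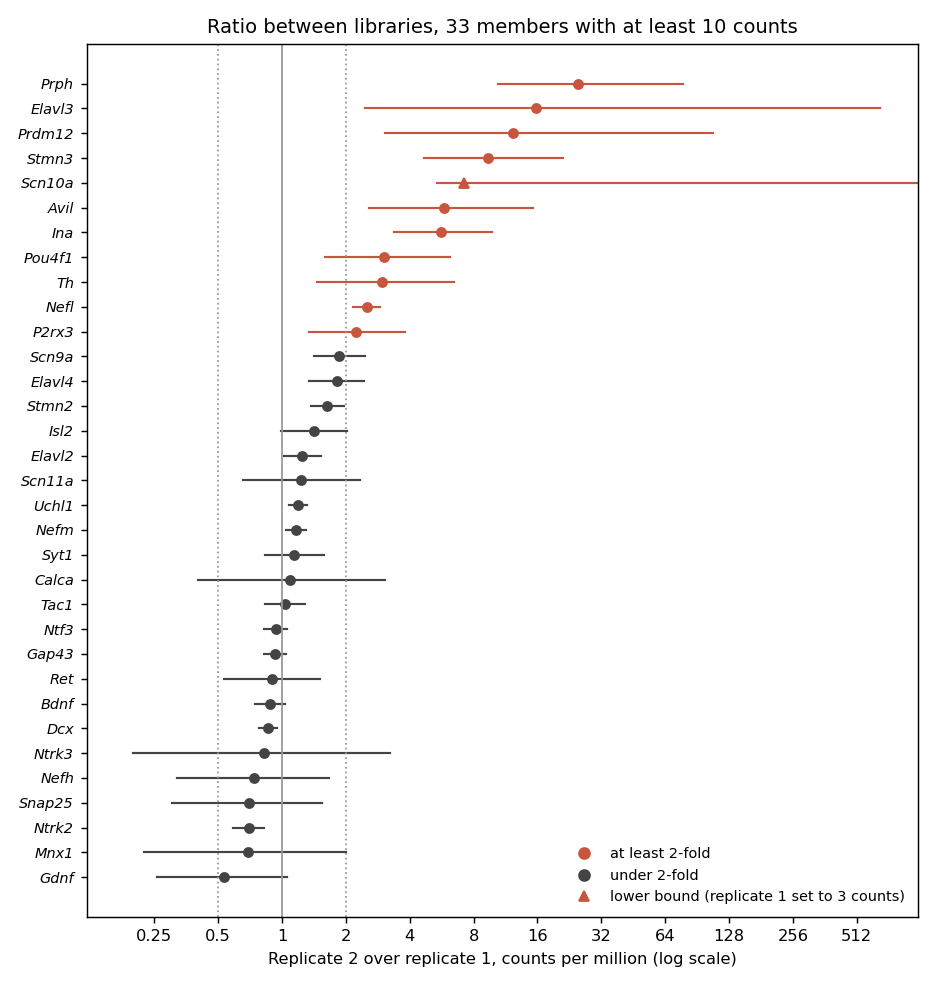
Ratio of CPM, replicate 2 over replicate 1, on a log axis for the 33 genes with at least 10 counts. Bars are exact 95% counting intervals and dotted lines mark 2-fold. The triangle (lower bound in the legend) is Scn10a with replicate 1 set to 3 counts, and its interval starts lower, at 5.40. The 11 genes at least 2-fold higher in replicate 2 run from P2rx3 (2.23) to Prph (24.8), and Gdnf (0.531) is the lowest.

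Over the 33 genes the interval of the ratio lay above 1 for 17, spanned 1 for 14 and lay below 1 for 2. These intervals hold counting error alone, and the libraries differed beyond it (chi-square per degree of freedom 6.21 over 18580 genes). How many of all genes had an interval on 1 side of 1 was not counted. All 11 genes at least 2-fold higher in replicate 2 had an interval above 1, and the others above 1 were Stmn2, Uchl1, Nefm, Elavl2, Elavl4 and Scn9a. Of all 18580 genes, 1.64% were at least 2-fold higher in replicate 2 with an interval above 1. Nearest to the 2-fold limit were P2rx3 (2.23), just past it, and Scn9a (1.86), just short of it. The median log2 ratio, with 0.5 counts added, was 0.29 over the 33 genes, beside -0.01 over all 18580 genes, whose quartiles were -0.14 and 0.11. These genes were not at one fold: the libraries were level for Gap43, Tac1, Ntf3 and Bdnf and far apart for Prph, Elavl3, Prdm12 and Stmn3.

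By depth, among genes with 10 to 99 counts, 8 of 16 were at least 2-fold higher in replicate 2, where the share over all genes of that range was 10.4%. Among those with at least 100 and under 1000 counts, 3 of 12 were (Nefl, Prph and Ina), where the share was 0.792%. Among those with at least 1000 counts, 0 of 5 were, where the share was 0.123%. These shares describe how often a gene of such a depth was 2-fold apart in these libraries, and the choice of the genes used the same contrast.

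**Figure D4:**
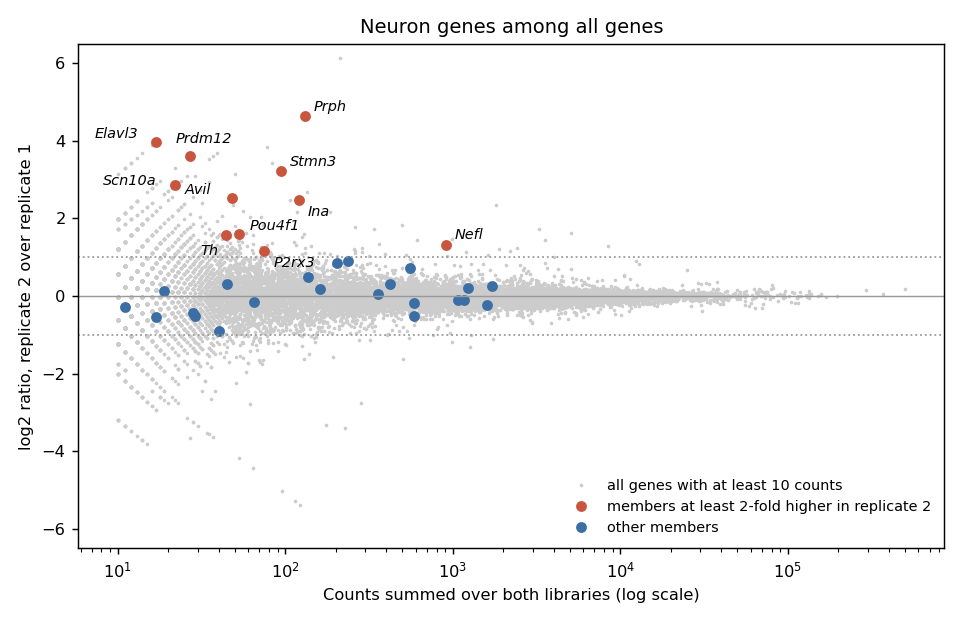
Each point is a gene with at least 10 counts: the x axis is its count summed over both libraries (log scale) and the y axis the log2 ratio of CPM, replicate 2 over replicate 1, with a library at 0 set to 3 counts. The 11 genes at least 2-fold higher in replicate 2 (labelled) lie above the upper dotted line at 2-fold, from Elavl3 with 17 counts to Nefl with 909.

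The highest GC content of any 100-nt window of a gene's transcripts was also read. Its median was 74% in the 11 genes at least 2-fold higher in replicate 2 and 74% in the other 22, with 4 of 11 (36.4%) and 7 of 22 (31.8%) holding a window of at least 80%. Pooled over depth, that share was 24.1% over all genes with at least 10 counts and 12.2% over all genes at least 2-fold higher in replicate 2. The 4 were Pou4f1 (97%), Prdm12 (84%), Ina (81%) and Elavl3 (80%), and the other 7 of the 11 ran from Avil (67%) to Prph (79%). The part of GC content in the ratios was not tested. Over all genes the median was 73%, and 66% for genes at least 2-fold higher in either replicate. The share at least 2-fold higher in replicate 2 was also read by depth, for all genes with and without a window of at least 80%. At 10 to 99 counts these shares were 8.59% and 10.6%. With at least 100 and under 1000 counts they were 0.899% and 0.685%. With at least 1000 counts they were 0.36% (10 of 2779) and 0.0162% (1 of 6165). The order of the shares thus differed with depth.

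Markers of other tissue that a limb dissection could hold were set beside these values. Of 12 neural tube progenitor and interneuron markers, 6 had at least 10 counts. Of those 6, 0 were at least 2-fold higher in replicate 2 and 1 at least 2-fold higher in replicate 1. The shares over all genes were 3.03% and 2.78%. The 12 markers summed to 8.46 TPM in replicate 1 and 8.18 in replicate 2. Sox1 and Nkx2-2, defining genes of neural tube progenitors, were at 0 in both libraries, and Pax6 had 12 and 2 counts. Evx1 (4.18 TPM) and Dbx2 (2.70 TPM) made up most of that sum, followed by Sox2 (0.61 TPM). Evx1 is also expressed in the limb bud, and which cells gave the counts of Evx1, Dbx2 and Sox2 was not tested.

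Other sensory neuron genes, not among the 37, were higher in replicate 2 for 4 of 11 with at least 10 counts, and lower for 0, by at least 2-fold. Over all genes those shares were 3.03% and 2.78%. This list and the other lists were also chosen with earlier results of the same libraries known, so nothing is read from that contrast. Prrxl1 and Neurod1 lie in the range of 10 to 99 counts, where 10.4% of all genes were at least 2-fold higher in replicate 2. The list summed to 61.7 TPM in replicate 1 and 75.0 TPM in replicate 2, with a median log2 ratio of 0.23. Those at least 2-fold higher included Isl1 (301 and 620 counts, 2.03-fold) and Prrxl1, a factor of sensory ganglia (2 and 20 counts, 9.86-fold). Neurod1 was also among them (0 and 14 counts, 4.60-fold with replicate 1 set to 3 counts, counting interval from 3.27). Isl1 is also expressed by hindlimb mesenchyme, and its part in this difference was not tested. The highest of this list were Piezo2, a touch channel (27.0 TPM), Etv1 (11.2 TPM) and Isl1 (10.7 TPM), and Runx3 was the furthest below 1 (117 and 89 counts, 0.750-fold). Neurog2, Trpm8 and Mrgprd were at 0 in both libraries.

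Other genes shared by many kinds of neuron gave 4 of 19 at least 2-fold higher in replicate 2 and 0 at least 2-fold lower. The shares over all genes were 3.03% and 2.78%. This list summed to 264 and 275 TPM. The 4 were Mapt, the tau protein of axons (41 and 101 counts), Sncg (41 and 90), Syt4 (11 and 31) and Cntn2 (82 and 179). The highest were Nsg1 (96.8 TPM), Vamp2 (61.2 TPM) and Map1b (36.6 TPM), which were within 2-fold, and L1cam was the furthest below 1 (83 and 51 counts, 0.606-fold). Of 3 other motor and cholinergic genes with enough counts, Ache, Slc5a7 and Slc10a4, 0 were 2-fold apart. Among other autonomic neuron genes 1 of 9 was at least 2-fold higher in replicate 2 (Dbh, 4 and 10 counts). At least 2-fold higher in replicate 1 were 2, among them Slc6a2 (8 and 3 counts). The intervals of Dbh (0.711 to 10.8) and Slc6a2 (0.0632 to 1.54) spanned 1. At 10 to 99 counts, where Dbh lies, 10.4% of all genes were at least 2-fold higher in replicate 2. The highest of the autonomic genes were Ddc (10.4 TPM), Slc18a2 (6.40 TPM) and Gata3 (3.84 TPM).

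Schwann cell precursors, the glia that travel along the axons, were read from 13 markers. Of these markers, 2 of 13 were at least 2-fold higher in replicate 2, against 3.03% of all genes. Their sum was 53.5 TPM in replicate 1 and 57.2 TPM in replicate 2, with a median log2 ratio of -0.02. Sox10, their defining factor, had 179 and 171 counts. Ngfr (21.3 TPM) and Erbb3 (13.3 TPM) led and were close in both libraries. Fabp7 had 32 and 94 counts (2.90-fold, 1.92 to 4.47) and S100b 5 and 14 (2.76-fold, 0.939 to 9.79). S100b lies in the range of 10 to 99 counts, where 10.4% of all genes were at least 2-fold higher in replicate 2. Fabp7 is also abundant in the satellite glia of ganglia, and its part in the difference was not tested.

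Beside the 3 growth factors and 3 receptors, 17 further genes of the neurotrophin, GDNF and related systems were measured, some of which are also in the Schwann cell and sensory neuron lists. Of 15 with at least 10 counts, 1 was at least 2-fold higher in replicate 2 and 0 at least 2-fold lower. The shares over all genes were 3.03% and 2.78%. The 17 genes summed to 144 TPM in replicate 1 and 142 TPM in replicate 2. Ngfr, Nrtn (16.1 TPM) and Sort1 (16.0 TPM) were the highest, and Gfra2 was the furthest below 1 (107 and 78 counts, 0.719-fold). Of the ligands, Ntf5 was at 3.80 TPM and Artn at 13.8 TPM, against 22.3 TPM for Ntf3.

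Lists of other limb cell types had medians that differed little between the libraries, apart from cartilage. Of 14 cartilage markers, 0 were at least 2-fold higher in replicate 2 and 5 at least 2-fold higher in replicate 1, with a median log2 ratio of -0.49 and a sum of 1270 and 1112 TPM. Limb mesenchyme markers (9 genes, median 0.10), skeletal muscle markers (8 genes, -0.10), endothelial and blood markers (9 genes, -0.12) and ectoderm markers (7 genes, -0.15) had 0 genes 2-fold apart in either direction. Most genes of these lists had at least 1000 counts, where 0.123% of all genes were at least 2-fold higher in replicate 2. Not all of the 5 cartilage markers higher in replicate 1 had that many counts. In that direction the share was 2.78% of all genes with at least 10 counts, and it was not split by depth. Of the 9 mesenchyme markers, 6 had a ratio above 1 and 3 below. The forelimb gene Tbx5 had 2531 and 1747 counts (0.68-fold, 0.64 to 0.72). The hindlimb gene Pitx1 had 5626 and 6964 (1.22-fold, 1.18 to 1.26). The part that the make-up of the limb pools or any of these tissues had in the neuron gene values, or in that of Isl1, was not tested.

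**Figure D5:**
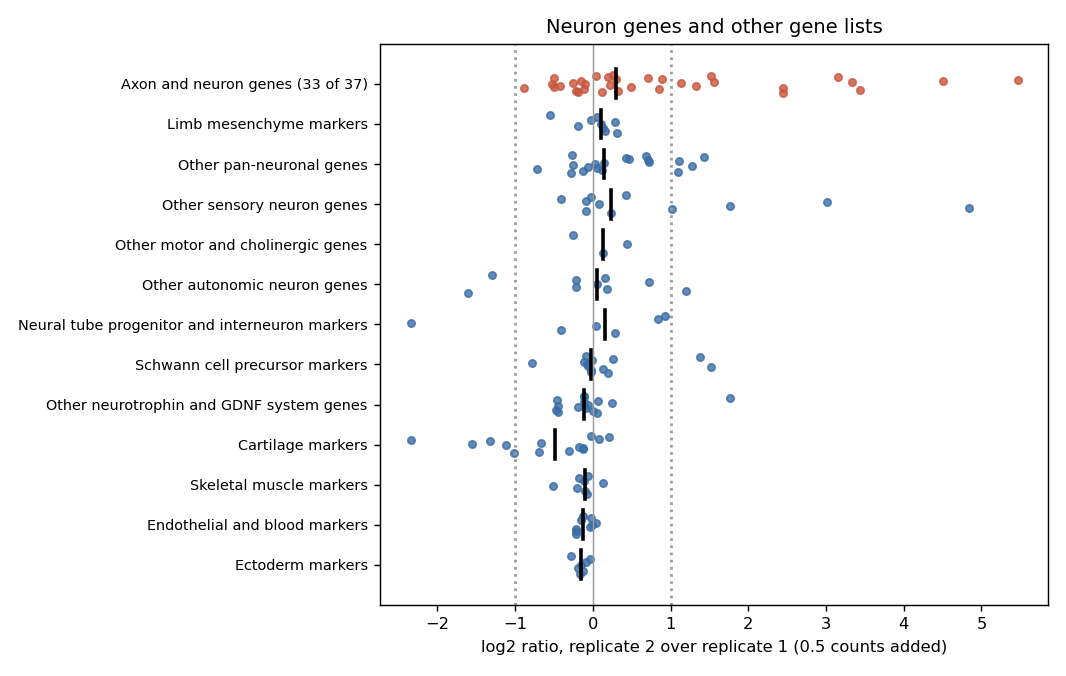
Log2 ratio, replicate 2 over replicate 1 with 0.5 counts added, for the genes with at least 10 counts of each list; each point is a gene, the black bar the median and the dotted lines 2-fold. The 33 axon and neuron genes have a median of 0.29 and a long upper tail, other sensory neuron genes a median of 0.23, and cartilage markers a median of -0.49.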

How the data were processed

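Total RNA was sequenced from 2 limb pools, and each was deposited as a gene table and a transcript table. The deposited expected counts are the authors' estimates per gene and transcript, which need not be whole, per the file headers. Deposited TPM values were scaled by length and depth, and the deposited percent values give each transcript's share of its gene, per the file headers. The text files deposited with the samples name mm10 as build and GENCODE M4 as annotation. Aligner, quantifier and strandedness: not given in the sources used here.

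Expected counts were rounded and scaled by the total over Ensembl genes (28832252 and 29249348). Names came from GENCODE M21 by identifier without version, and 42462 of 43346 genes matched. The libraries differed beyond counting error (chi-square per degree of freedom 6.21 over 18580 genes) and were kept as 2 replicates. A fold of at least 2 needed at least 10 summed counts, and a library at 0 was set to 3 counts. Ratio intervals are exact conditional binomial intervals, and count intervals exact Poisson intervals, at 95%. With 1 group no test between groups exists, and replicates are separate pools. The calculation was tested on simulated data that held counting error alone, so the further spread of these libraries was not covered by that test. The genes and lists were chosen with earlier results of these data known.

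All 37 genes were named. Transcripts were named for genes with at least 20 counts in each library (the one with the largest mean share, and all with at least 10 percent for a preset few). Beyond that rule, transcripts of Uchl1, Nefm, Isl2, Syt1 and Elavl2 and some genes of the other lists were named after their values were seen. Of the other lists, the 3 highest genes and the largest fold in each direction were named for neural lists. The lists of other limb tissues are given by counts alone, apart from Tbx5 and Pitx1. Some genes named by that rule are not reported here. Alternatives changed scaling, unit, filters and the added count, or left out a library. Promoters came from RefSeq (GRCm38.p6). Tools were R 4.3.3 with edgeR 4.0.16 (TMM) and DESeq2 1.42.0 (size factors) for scaling, and, in Python 3.11.15, scipy 1.17.1, numpy 2.4.6, matplotlib 3.10.9 and pandas 2.3.3.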

Additional observations from a re-analysis of the deposited data

How the results depend on the processing

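With at least 50 summed counts in place of 10, 6 of 21 genes were at least 2-fold higher in replicate 2 in place of 11 of 33, where the share over all genes was 0.605%, since Avil, Elavl3, Prdm12, Scn10a and Th had too few counts. With TPM in place of scaled counts, 1 gene (Ntrk3) was at least 2-fold higher in replicate 1, and 10 were higher in replicate 2, of which 9 were among the 11. With TMM factors, DESeq2 size factors or posterior-mean counts, or when the interval had to lie on 1 side of 1, the same 11 genes were at least 2-fold higher in replicate 2. With no minimum on counts the number was 12, with Tlx3 added. The median log2 ratio was between 0.29 and 0.32 in every setting run. Leaving out a library gave 14 or 20 genes at 1 TPM and summed levels of 152.7 or 184.3 TPM. In expected counts in place of TPM, the mean share of the leading transcript moved by more than its SD between the libraries for 5 of 16 genes. Among these, Dcx-201 was at 64.4%, Scn9a-202 at 65.4%, Tac1-203 at 28.2% and Elavl4-211 at 16.6% of expected counts. That limit is wide where the libraries differed. P2rx3-201 went from 65.4% of TPM to 86.25% of expected counts and Isl2-201 from 52.9% to 63.3%, both within their SD. No paired analysis was possible because there is 1 group. Depth limits 19 of the 37 genes, which had under 20 counts in at least 1 library.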
